A study of Mus musculus with 4 samples.

Results

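The comparison set 3T3-L1 cells given 100 nM delphinidin against 3T3-L1 cells given the solvent DMSO alone, on day 2 of adipocyte differentiation. It used 2 of the 4 arrays of the series, and its members were the genes whose signal was well above background, without an outlier mark, on both arrays. These were 23374 of 41174 probes, which stood for 12672 of the 19757 genes named on the array, each taken by its brightest such probe. 3T3-L1 is an established mouse line of preadipocytes, a single clonal line grown in plastic, so it holds neither the vessels nor the immune cells of fat tissue. All cultures were induced on day 0 with the same medium of insulin, dexamethasone and IBMX, all contained 0.1% DMSO, and each received its additive from day 0 until the harvest on day 2. The remaining arrays held cells given 100 nM cyanidin and cells given 100 μg/mL bilberry extracts. Each condition had 1 array. The differences below therefore carry no p-value and no replicate check, and effects of a treatment and of a culture dish cannot be told apart.

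Confluent preadipocytes that receive this hormone mixture re-enter the cell cycle in a step called mitotic clonal expansion. C/EBPβ and C/EBPδ are induced first and precede PPARγ and C/EBPα, the factors that switch on the adipocyte genes. Insulin acts in this system through its own and the IGF-1 receptor, IRS proteins, PI3-kinase and Akt. Delphinidin is an anthocyanidin, a plant pigment of the flavonoid class, and differs from cyanidin by an additional hydroxyl group on the B ring. The study asked whether such compounds hinder adipocyte differentiation and insulin signaling.

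Signals are given as scaled signal, the processed intensity of a spot over the 75th percentile of the spots on the same array, so that 1 is that percentile. It was 861 on the DMSO array and 1009 on the delphinidin array. A log2 ratio is the log2 scaled signal with delphinidin minus that with DMSO, and "past 2-fold" means a log2 ratio over 1 or under -1. The scanner software's error model gave a ratio from single spots an error that grew toward low signal, with a median of 0.20 on the log2 scale in the brightest of 5 equal groups of probes and 0.27 in the dimmest, and this covers the spots of an array, not the culture. Of the cell type markers, 10 of 11 adipocyte markers were well above background on both arrays, and their summed scaled signal was 394 with DMSO and 429 with delphinidin. Lpl was at 95.6 and 159 in that order, while Fabp4, the largest term, was at 265 and 231. Adipoq, Slc2a4 and Retn were also lower with delphinidin, and Pparg, Cebpa, Plin1, Cd36 and Cfd were higher. Leptin was not detected, as the only marker missing from that list. Of 12 preadipocyte and fibroblast markers, 12 were detected with DMSO and 11 with delphinidin. The remaining marker had no value with delphinidin after outlier-marked spots were left out. The sum over the 11 with a value on both arrays was 971 with DMSO and 877 with delphinidin. Among the macrophage and leukocyte markers 5 of 9 were detected, and the sums over all 9 were 1.07 with DMSO and 0.712 with delphinidin. Most of that difference was Cd14, at 0.757 and 0.405, while Cd68, Csf1r, Lyz2 and Fcer1g had log2 ratios between -0.12 and 0.26. A further detected probe of Fcer1g gave -1.26. Ptprc, Adgre1, Itgam and Tyrobp were not well above background on either array.

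Most genes had nearly the same scaled signal on both arrays. The gene ratios had a median of -0.02, quartiles of -0.21 and 0.16 and 5th and 95th percentiles of -0.65 and 0.54, and 11311 of 12672 genes lay within 1.5-fold. Past 2-fold, 252 probes were higher and 430 were lower with delphinidin, which is 1.08% and 1.84% of the probes measured and 2.92% in either direction. Over genes, 165 (1.3%) were higher and 251 (1.98%) were lower, 3.28% in all. The genes nearest the threshold had log2 ratios of 1.00204 inside and 0.998659 outside on the higher side, and of -1.00082 inside and -0.996856 outside on the lower side. Higher probes made up 37.0% of those past 2-fold. When the arrays were scaled to the spike-in control RNAs instead, every log2 ratio moved up by 0.27 and this share became 73.0% (588 higher and 217 lower). It was 49.5% under quantile normalization (318 and 325) and 50.7% under loess (322 and 313), so neither direction was the more frequent under all scalings and gene groups are described relative to the median of all 12672 genes.

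**Figure D1:**
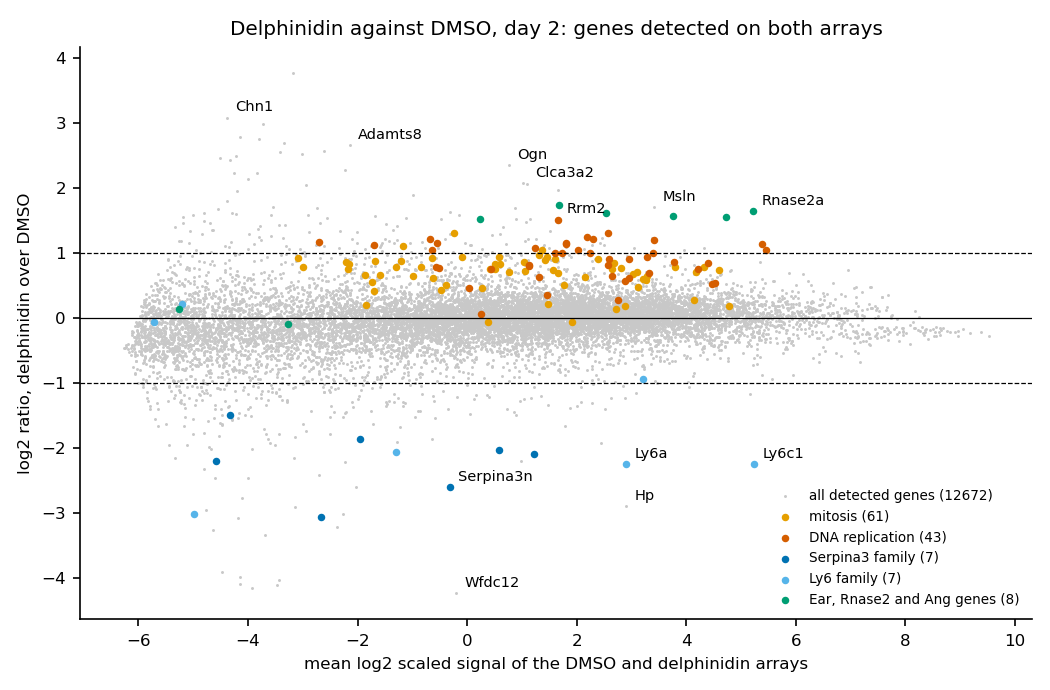
Each point is a gene detected on both arrays, with the mean log2 scaled signal of the DMSO and delphinidin arrays on the x axis and the log2 ratio of delphinidin over DMSO on the y axis. Dashed lines mark 2-fold. DNA replication genes and most mitosis genes lie together above 0, the Serpina3 family lies below the lower line, and the spread of all genes widens toward low signal.

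The genes of DNA replication were higher with delphinidin as a group. All 43 members of the list were detected, all 43 lay above the median of all genes, and 18 were past 2-fold higher and none lower, where 1.3% of all genes were past 2-fold higher. Their median log2 ratio was 0.92 above that of all genes, and the members ranged from 0.06 (Pold3, a subunit of DNA polymerase delta) to 1.51 (Rrm2). In RNA from whole cultures, a larger share of cells in S phase and more of these mRNAs per cell cannot be told apart. Among the 17 helicase and origin genes 7 were past 2-fold, and among the 26 genes of polymerases and nucleotide synthesis 11 were.

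Rrm2, the small subunit of ribonucleotide reductase, which makes deoxyribonucleotides, had a scaled signal of 1.87 with DMSO, 5.34 with delphinidin, 4.03 with cyanidin and 5.90 with bilberry extracts. The delphinidin signal was 2.85-fold that with DMSO, and the DMSO array was the lowest of the 4. The probe lies at chr12:25302833-25302889 on mm8. Mcm5, a subunit of the MCM2 to MCM7 helicase that unwinds DNA at forks, measured 3.75, 9.32, 7.05 and 12.2 in the same order, a log2 ratio of 1.31 for delphinidin. The other helicase subunits ranged from 0.76 (Mcm4) to 1.20 (Mcm3), and a further probe of Mcm3 gave 1.21. Cdc6 and Orc1, which load this helicase at origins, had log2 ratios of 1.21 and 1.16, and both were lowest on the DMSO array. Orc1 was dim, at a scaled signal of 0.102 with DMSO and 0.229 with delphinidin, and its ratio was 0.76 after normexp background correction.

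Pcna, the sliding clamp of the polymerases, was at 28.2 with DMSO and 61.8 with delphinidin. It was spotted several times on each array, so its log2 ratio of 1.13 had a smaller software error of 0.07. The enzymes of thymidine nucleotide supply were higher as well, with log2 ratios of 1.21 for Tk1 and 1.00 for Tyms. Tyms and Chaf1a, a subunit of chromatin assembly factor 1, sat at the threshold, and quantile or loess normalization put both just under it. Uhrf1, which brings DNA methylation to newly made strands, went from 2.38 with DMSO to 5.20 with delphinidin, a log2 ratio of 1.13.

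**Figure D2:**
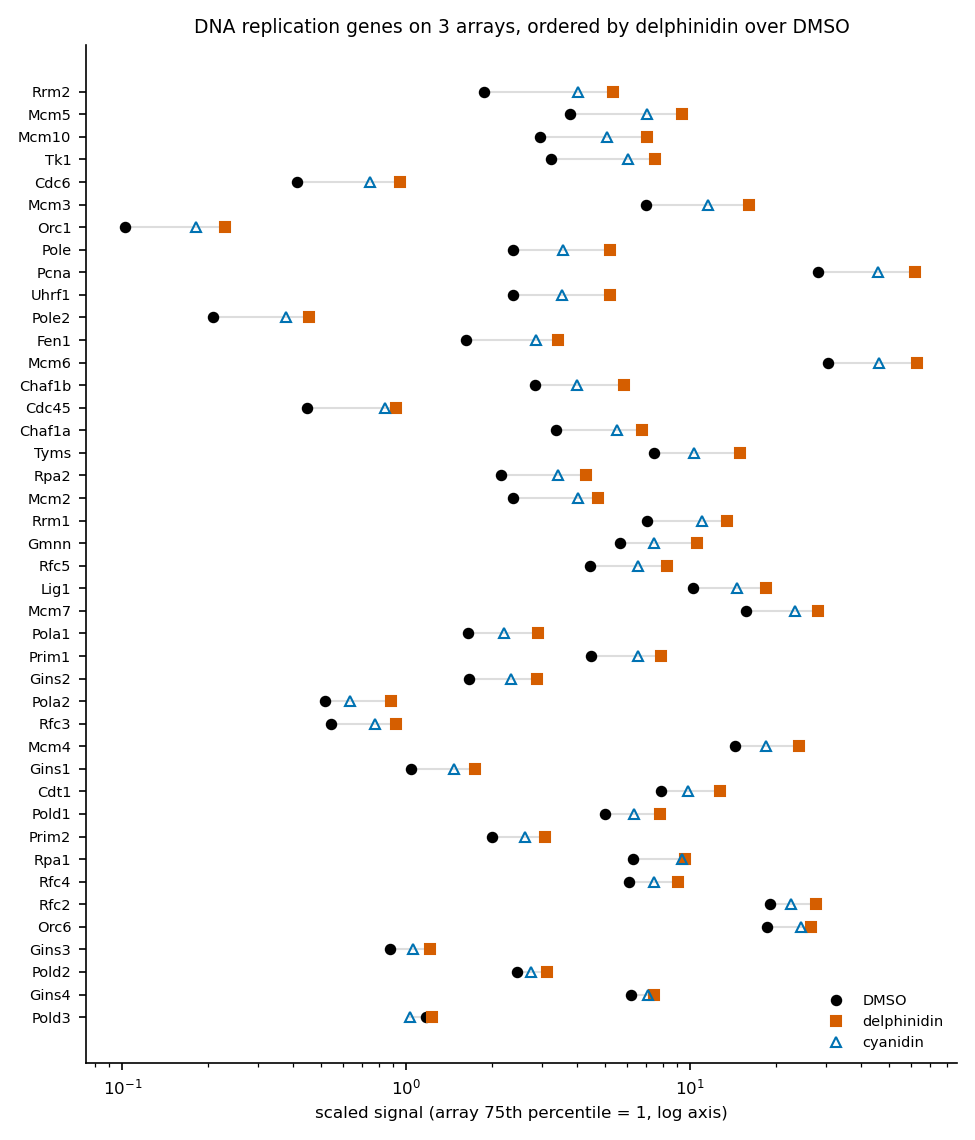
Scaled signal (log axis) of 42 DNA replication genes on the DMSO, delphinidin and cyanidin arrays, 1 point for each array and no error bars, since each condition had 1 array. In every gene shown the delphinidin point lies right of the DMSO point, and in most the cyanidin point lies between them.

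E2F factors regulate many S-phase genes through a short site near the start of the gene, so the 250 bases before the start site were read from the RefSeq promoter table (GRCm38.p6). TTTCCCGC, TTTCGCGC, TTTGCCGC and TTTGGCGC were searched on both strands. Of the 34 DNA replication genes with a window 9 (26.5%) held such letters, against 382 of 10066 detected genes (3.79%) and 1.86% of all windows of this length in the table. The windows of 4 of the 5 matching genes past 2-fold are shown to let the match be seen in place, with the matching letters in capitals. A match is a description of the sequence only, and binding was not measured. The windows lie on the plus strand at chr8:75109259-75109508 (Mcm5), chr11:98907901-98908150 (Cdc6), chr4:108579204-108579453 (Orc1) and chr17:56304063-56304312 (Uhrf1), and the capitals begin 153, 138, 27 and 185 bases before the start site.
Mcm5: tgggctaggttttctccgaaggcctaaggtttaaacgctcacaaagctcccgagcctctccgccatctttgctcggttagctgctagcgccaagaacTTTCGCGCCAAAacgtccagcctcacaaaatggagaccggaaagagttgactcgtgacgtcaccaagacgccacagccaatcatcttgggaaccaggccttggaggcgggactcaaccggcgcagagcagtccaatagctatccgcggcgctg
Cdc6: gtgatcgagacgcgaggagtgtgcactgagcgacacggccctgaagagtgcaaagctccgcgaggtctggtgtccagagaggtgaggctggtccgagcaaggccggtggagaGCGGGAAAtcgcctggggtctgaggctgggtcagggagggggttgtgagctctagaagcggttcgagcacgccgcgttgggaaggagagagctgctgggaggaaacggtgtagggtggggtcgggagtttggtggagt
Orc1: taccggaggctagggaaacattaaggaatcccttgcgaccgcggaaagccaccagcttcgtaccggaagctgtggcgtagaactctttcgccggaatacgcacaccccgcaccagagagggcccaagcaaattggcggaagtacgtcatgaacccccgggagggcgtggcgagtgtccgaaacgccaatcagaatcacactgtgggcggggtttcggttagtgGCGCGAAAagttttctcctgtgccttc
Uhrf1: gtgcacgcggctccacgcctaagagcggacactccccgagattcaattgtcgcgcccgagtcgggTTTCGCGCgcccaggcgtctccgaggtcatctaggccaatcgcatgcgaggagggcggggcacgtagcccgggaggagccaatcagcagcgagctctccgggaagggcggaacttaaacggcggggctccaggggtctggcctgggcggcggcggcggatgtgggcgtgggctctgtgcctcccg

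Mcm5 and Uhrf1 carried TTTCGCGC as written. In Mcm5 it overlaps GCGCCAAA, the other strand of TTTGGCGC, which begins 149 bases before the start site, so that the capitals cover both. Orc1 carried GCGCGAAA, which is the same letters on the other strand. Cdc6 carried GCGGGAAA, the other strand of TTTCCCGC. The mRNA ratios of these 4 genes lay between 1.13 and 1.31, and Mcm6, the other gene past 2-fold with a match, was at 1.04. Members without a match included Rrm2 at 1.51 and Mcm10 at 1.25.

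Mitosis genes were also higher as a group. Of 61 measured members of 62, 59 lay above the median of all genes, 3 were past 2-fold higher, against 1.3% of all genes, and none lower, and the median was 0.75 above that of all genes. The 3 were Mybl2, a transcription factor of the late cell cycle, at 1.30, Smc2, a condensin subunit, at 1.10, and Top2a, which untangles sister chromatids, at 1.05. Under spike-in scaling 32 mitosis genes and 32 DNA replication genes were past 2-fold higher. Top2a had a scaled signal of 1.79 with DMSO, 3.71 with delphinidin and 3.46 with cyanidin, and a further probe gave 1.16. Smc2 was at 0.92 after normexp correction, and its further probes gave 0.82, 0.88 and 1.04. Cdk1, the kinase that drives entry into mitosis, had a ratio of 0.91 and Mki67, the Ki-67 antigen, one of 0.61. The lowest members were Cenpa and Cdc25b, both at -0.06. The CHR letters TTTGAA, found on either strand near genes of the G2 and M phases, were in 18 of 52 mitosis windows (34.6%) and in 12.8% of detected genes, and the E2F letters were in 4 of 52 (7.69%).

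The list of G1 cyclins and CDK inhibitors is given by role, and the difference between the roles was not tested. Among 15 measured cyclins, kinases and E2F factors 4 were past 2-fold higher, against 1.3% of all genes. Their median was 0.57 above all genes, and 3 of the 15 lay below the median of all genes. The 7 inhibitors held none past 2-fold and had a median 0.07 below, with 3 of the 7 above the median of all genes. Ccnd1, cyclin D1, which carries growth factor signals to the retinoblastoma protein, had a scaled signal of 1.31 with DMSO and 3.78 with delphinidin, at a software error of 0.06 on a log2 ratio of 1.53. Ccne2, a cyclin of S-phase entry, was at 0.403 with DMSO, 0.849 with delphinidin, 0.366 with cyanidin and 0.387 with bilberry extracts. Delphinidin was the only array of the 4 that stood apart for Ccne2, at a log2 ratio of 1.07 over DMSO and 1.22 over cyanidin, and a further probe gave 1.27 over DMSO. E2f7 and E2f8, E2F factors that repress transcription, had ratios of 1.19 and 1.46, of which E2f8 was at 0.93 after normexp correction. The inhibitor Cdkn1b (p27) had a ratio of -0.35.

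Genes that insulin signaling acts through differed little. Of 76 measured members of 83, 1 was past 2-fold higher and none lower, against 3.28% of all genes in either direction, and the median was 0.01 above that of all genes. The single member past 2-fold was Pik3cb, a catalytic subunit of PI3-kinase, with a scaled signal of 0.0858 with DMSO, 0.215 with delphinidin and 0.118 with cyanidin. Its probe was dim, it lies in row 299 of the array, inside a band of rows with more large ratios (described below), and its ratio of 1.32 became 0.84 after normexp correction. Insr, the insulin receptor, was at 0.529 with DMSO and 0.363 with delphinidin, a log2 ratio of -0.54, and a further probe gave -0.63. Irs1 was at 0.20, Socs3, an inhibitor of cytokine and insulin receptors, at -0.85, and Slc2a4, the insulin-regulated glucose transporter GLUT4, at -0.61.

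Adipogenic factors and adipocyte genes lay in both directions. Of 21 measured transcription factors of adipogenesis 1 was past 2-fold lower, against 1.98% of all genes, and none higher, and the inhibitors of adipogenesis, with 20 measured of 23, had none past 2-fold and a median 0.12 below that of all genes. Pparg was at 16.04 with DMSO, 19.8 with delphinidin, 19.9 with cyanidin and 17.8 with bilberry extracts, a log2 ratio of 0.31. Cebpa had a ratio of 0.20 and Klf5, a factor acting early beside C/EBPβ and C/EBPδ, one of 0.48. Cebpb and Cebpd had ratios of -0.07 and -0.23, which were 0.20 and 0.04 under spike-in scaling, so their sign depended on the scaling. Klf15, a zinc finger factor, was the member past 2-fold, at -1.26, but it was dim and was at -0.66 after normexp correction and -0.99 under spike-in scaling. Srebf1 had no probe detected on both arrays.

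Among 30 measured adipocyte genes 1 was past 2-fold higher and 1 lower, against 3.28% of all genes in either direction, with a median 0.06 above that of all genes. Cfd, the secreted protease adipsin, was at 0.265 with DMSO, 0.589 with delphinidin and 0.894 with cyanidin, and its ratio of 1.15 was 0.94 after normexp correction. Trarg1, which regulates the trafficking of GLUT4, was at 0.310 with DMSO and 0.0412 with delphinidin, a ratio of -2.91. It was at 0.0584 with cyanidin and 0.0460 with bilberry extracts, so that the DMSO array alone stood apart. Its only probe lies in row 271, inside the band of rows with more large ratios. Lpl, lipoprotein lipase, had a ratio of 0.73 and Fabp5, a fatty acid carrier, one of 0.80. Adipoq, adiponectin, was at 1.16 with DMSO and 1.02 with delphinidin, and its ratio of -0.19 was 0.08 under spike-in scaling. The probe used for Actb, the reference gene of the study's PCR, had a ratio of -0.00. That probe is placed on chromosome X by the files, and a further probe on chromosome 5 gave -0.10.

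Lipid metabolism held few large ratios, where 3.28% of all genes were past 2-fold in either direction and 1.98% were lower. Fatty acid synthesis had 13 members measured of 18, with Thrsp at -1.06 as the only one past 2-fold, and it was under 2-fold with quantile, loess, spike-in and normexp processing. Of 24 measured genes of fatty acid oxidation and peroxisomes, only Acox2, a peroxisomal oxidase, was past 2-fold. It went from 0.375 with DMSO to 0.0219 with delphinidin, 0.0341 with cyanidin and 0.0277 with bilberry extracts, so that the DMSO array alone stood apart. Cholesterol synthesis and uptake had 26 members measured and none past 2-fold, but 22 of them lay above the median of all genes, 0.24 in the median. The same median for cyanidin over DMSO, which shares the DMSO array, was -0.00.

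**Figure D3:**
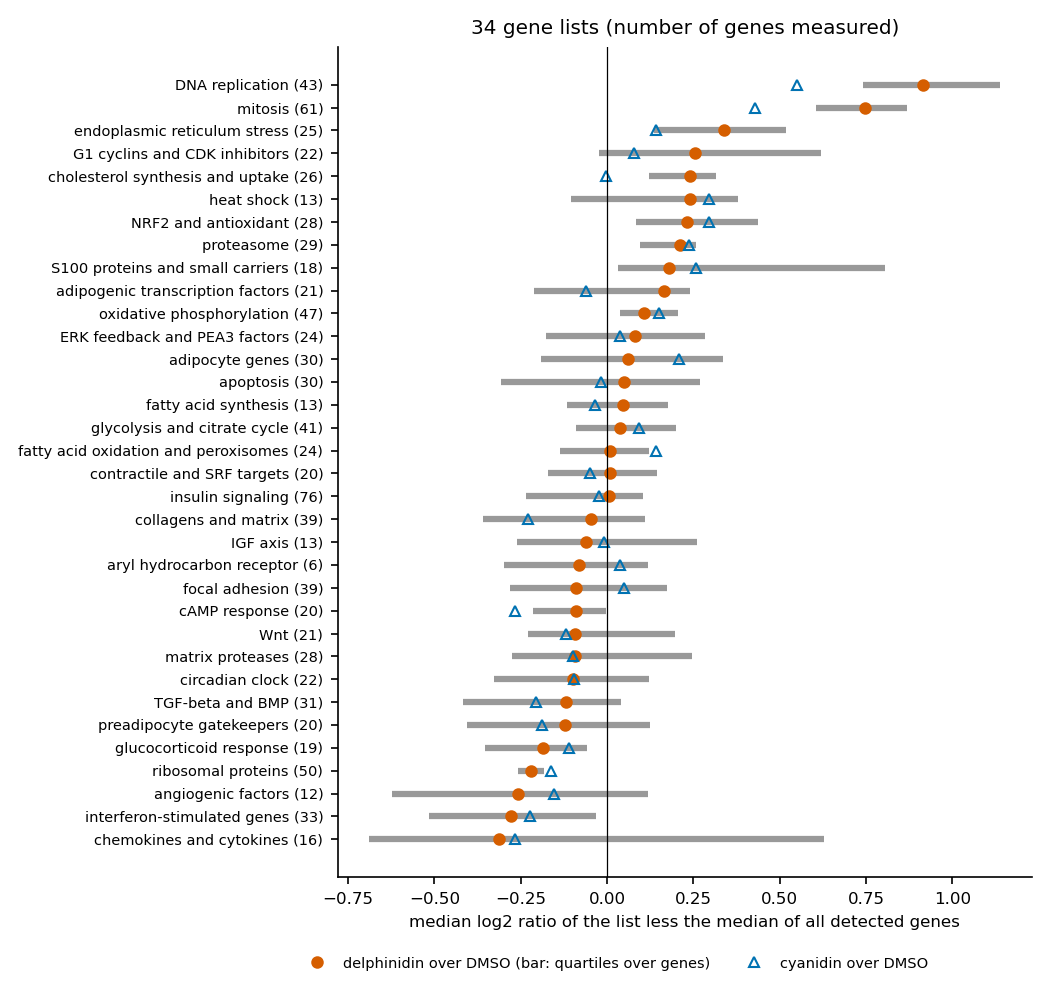
Median log2 ratio of each of 34 gene lists less the median of all detected genes, for delphinidin over DMSO (filled circles, with bars for the quartiles over genes) and cyanidin over DMSO (triangles), which share the DMSO array. DNA replication and mitosis lie farthest right for delphinidin, at 0.92 and 0.75, and ribosomal proteins have the narrow bar at -0.22.

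Protective enzymes were slightly higher. NRF2 is the factor that turns on antioxidant enzymes, and of 28 measured genes of its list 24 lay above the median of all genes, 3 were past 2-fold higher, against 1.3% of all genes, and none lower, and the median was 0.23 above that of all genes. Hmox1, heme oxygenase 1, was at 3.62 with DMSO, 8.49 with delphinidin, 5.26 with cyanidin and 13.2 with bilberry extracts. Gsta3, a glutathione transferase, was at 0.425, 1.22, 1.48 and 1.33 in that order, so all 3 treated arrays were higher than DMSO. Gsta1 sat at the threshold with 1.00 and was at 0.38 after normexp correction, and a further classical target, Nqo1, had a ratio of 0.14. Endoplasmic reticulum stress genes had a median 0.34 above that of all genes with none of 25 past 2-fold, from Ero1a at -0.13 to Sdf2l1 at 0.85. Heat shock genes had none of 13 past 2-fold, with Bag3 at -0.51 and Hsph1 at 0.46 as their extremes.

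Within several sets of housekeeping genes the members shared a small difference of the same direction. All 50 measured ribosomal protein genes lay below the median of all genes, with a median 0.22 below it, log2 ratios from -0.37 to -0.13 and none past 2-fold. Under quantile normalization their median relative to all genes was -0.0966. Proteasome subunits lay above the median in 28 of 29 genes, with a median 0.21 above it, and oxidative phosphorylation genes in 40 of 47, with a median 0.11 above it. For cyanidin over DMSO the ribosomal median was 0.16 below that of all genes.

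The bright genes that were lower with delphinidin included haptoglobin and members of the Serpina3 family and of the Ly6 surface proteins. These were chosen after their values were seen, among genes whose signal on 1 of the arrays exceeded the median of detected probes. The families are given with their dimmer members, and their counts are descriptions. Hp, haptoglobin, an acute-phase protein that binds free hemoglobin, was at 20.5 with DMSO, 2.76 with delphinidin, 5.18 with cyanidin and 2.26 with bilberry extracts, and was 7.43-fold lower with delphinidin. Its probe lies at chr8:112464401-112464460 on mm8. The DMSO array stood far above the other three for this gene.

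All 7 detected genes of the Serpina3 family, serine protease inhibitors encoded in a cluster on chromosome 12, were past 2-fold lower, against 1.98% of all genes, with log2 ratios from -3.06 (Serpina3k) to -1.49 (Serpina3j) and a median of -2.10. Serpina3n was at 1.99 with DMSO, 0.328 with delphinidin, 0.594 with cyanidin and 0.334 with bilberry extracts. Serpina3g went from 4.82 with DMSO to 1.13 with delphinidin. Dim members depended on the background correction, with Serpina3f at -0.95 and Serpina3j at -0.71 after normexp correction. Of 7 detected Ly6 genes, small surface proteins anchored by a lipid, 4 were past 2-fold lower, against the same 1.98%. Ly6c1 was at 82.4 with DMSO and 17.3 with delphinidin, a ratio of -2.25, and a further probe gave -2.96. Ly6a, known as the progenitor marker Sca-1, was at 16.3 with DMSO, 3.43 with delphinidin, 7.69 with cyanidin and 3.72 with bilberry extracts. Ly6e was at -0.94, and Ly6h and Ly6m, both dim, were at -0.07 and 0.22.

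Wfdc12 and Slpi, protease inhibitors of the WAP family, had ratios of -4.23 and -1.92. Wfdc12 was at 3.78 with DMSO and 0.202 with delphinidin, and Slpi at 10.7 and 2.81. Prg4, the lubricating proteoglycan lubricin, had a ratio of -1.40, and the complement protein C4b had a ratio of -1.54. A further family of closely related genes was Klra, known as receptors of natural killer cells, with 7 of 10 detected genes past 2-fold lower, against 1.98% of all genes, from -1.95 to -0.34 over the 10. After normexp correction Klra4, Klra7, Klra8, Klra9 and Klra10 were under 2-fold, between -0.86 and -0.71, and under spike-in scaling Klra4, Klra7 and Klra9 were, between -0.99 and -0.82. Probes for such families may each read RNA of several members, so the counts are not of independent genes.

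The bright genes that were higher included a family of secreted ribonucleases. These genes and this family were also chosen after their values were seen, so the counts are descriptions. Of 8 detected genes of the Ear, Rnase2 and Ang family, known from eosinophils and from angiogenin, 6 were past 2-fold higher, against 1.3% of all genes, and none lower, with a median of 1.55. Rnase2a was at 21.2 with DMSO, 65.8 with delphinidin, 43.3 with cyanidin and 46.3 with bilberry extracts. Its probe lies at chr14:50177340-50177399 on mm8. Ear1, Ear10 and Ear6 had ratios of 1.54, 1.56 and 1.62, and Ang6 and Ang4 had ratios of 1.74 and 1.52. A further probe of Ang4 gave -0.47, in the other direction, while Ang and Ang2, both dim, were at -0.09 and 0.14. A further probe of Ang gave -0.68. The genes are related in sequence, and how far a probe reads RNA of other members was not tested. Of the 9 macrophage and leukocyte markers 5 were detected on both arrays, Cd68, Csf1r, Lyz2, Cd14 and Fcer1g, and their part in these values was not tested.

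Other bright genes that were higher encode surface and matrix proteins. Ogn, the small proteoglycan osteoglycin, was at 0.750 with DMSO, 3.83 with delphinidin, 1.96 with cyanidin and 1.35 with bilberry extracts, a ratio of 2.35. Clca3a2 and Clca3a1, named as chloride channel accessory proteins, had ratios of 2.07 and 1.96. Msln, mesothelin, a surface protein anchored by a lipid, was at 5.92 with DMSO and 19.2 with delphinidin. Angptl7, a secreted angiopoietin-like protein, was at 0.990 with DMSO and 4.15 with delphinidin. S100b, a calcium-binding protein, went from 0.261 to 0.969. In all of these the delphinidin array was the highest of the 4.

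**Figure D4:**
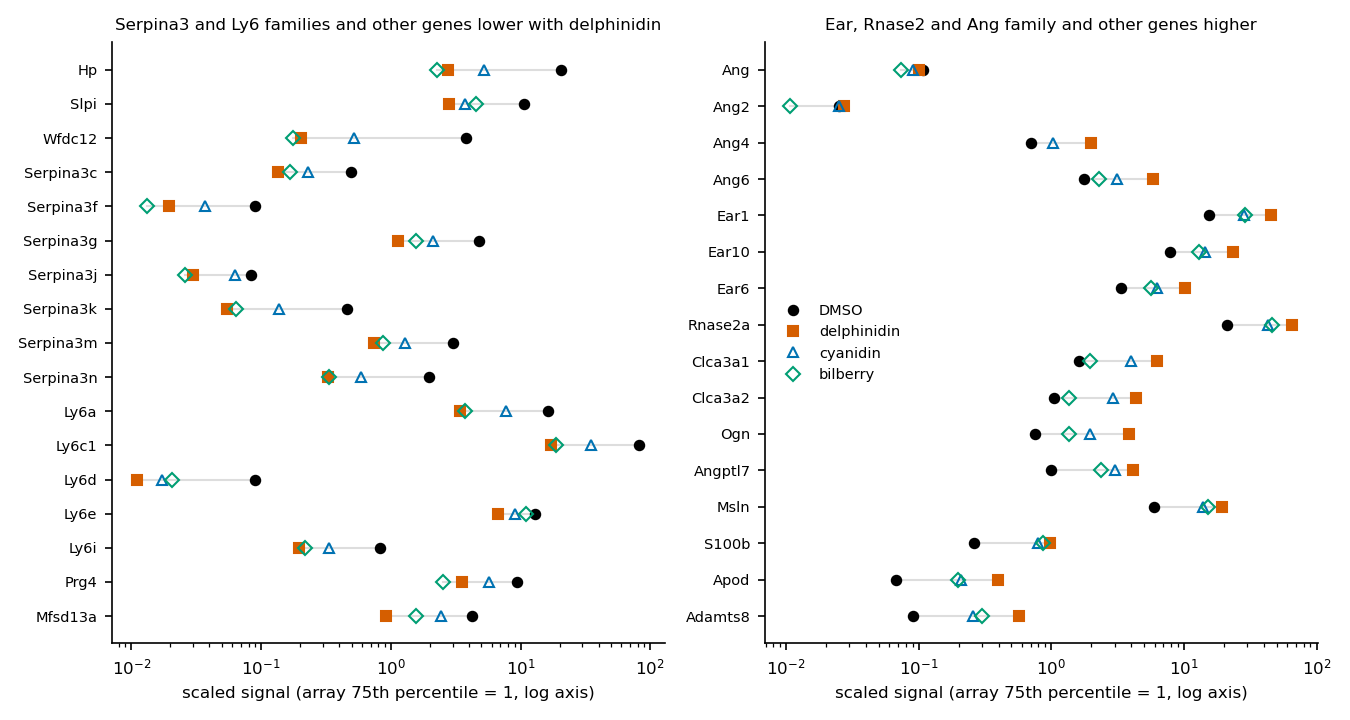
Scaled signal (log axis) of genes that were lower (left) and higher (right) with delphinidin, on each of the 4 arrays, 1 point for each array. Ang is shown at the right with its family, although it was not higher with delphinidin. In the left panel the DMSO point is the highest in every gene shown. In the right panel the delphinidin point is the highest in every gene except Ang, and cyanidin or bilberry lie between it and DMSO in most.

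Matrix genes differed singly. Adamts8, a protease with thrombospondin repeats, was at 0.0900 with DMSO, 0.568 with delphinidin, 0.259 with cyanidin and 0.300 with bilberry extracts, and its 2 detected probes gave 2.66 and 2.44. Mmp3, stromelysin, had a ratio of 2.13, from 0.0300 with DMSO to 0.131 with delphinidin, and was just under 2-fold after normexp correction, at 0.996. Adamts10 had a ratio of -2.59, but a further probe gave -0.10. Of 39 collagen and matrix genes measured, 2 were past 2-fold lower, against 1.98% of all genes, Col15a1 at -1.11 and Col7a1 at -1.06. Under spike-in scaling they were at -0.84 and -0.79, and Col15a1 was at -0.93 after normexp correction. Lama5, a laminin chain of basement membranes, was the only one of 39 focal adhesion genes past 2-fold, at 0.799 with DMSO and 0.212 with delphinidin. Of 20 contractile genes none was past 2-fold, with Mylk at -0.81 and Cnn1 at 0.58.

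Secreted signals lay in both directions. Among 16 measured chemokines and cytokines of 28, Ccl2, which attracts monocytes, was at 2.38 with DMSO and 5.07 with delphinidin, and Ccl11, eotaxin, had a ratio of 1.56 that was 0.29 after normexp correction. Il33, an alarmin, was at 0.574 with DMSO and 0.225 with delphinidin, and Cxcl13, which attracts B cells, had a ratio of -1.23 that was -0.95 under spike-in scaling. Interferon-stimulated genes had a median 0.28 below that of all genes, with 2 of 33 past 2-fold lower, against 1.98% of all genes. Trim14 was at 0.248 with DMSO, 0.0245 with delphinidin, 0.0157 with cyanidin and 0.0400 with bilberry extracts. Its only probe lies in row 282, inside the band of rows with more large ratios. Mx2, at -1.06, was under 2-fold with all of quantile, loess, spike-in and normexp processing. In the IGF axis, Igf2, an embryonic growth factor, had a ratio of 1.45 with a further probe at 0.88. H19, the noncoding RNA of the same imprinted region, was at 0.969 with DMSO and 2.38 with delphinidin, and its other probe gave 1.26. Igfbp6 was at 1.21 and Igfbp2 at -1.74, both binding proteins of these ligands. Wnt4 at -1.25, Tgfb2 at -1.20 and Nrp2, a coreceptor of VEGF and semaphorins, at -1.07 were lower. Under spike-in scaling Wnt4, Tgfb2 and Nrp2 were at -0.98, -0.93 and -0.80.

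Among 22 measured genes of the circadian clock and its outputs 2 were past 2-fold lower, against 1.98% of all genes, and the list median was 0.10 below that of all genes. Dbp, a clock-driven transcription factor, was at 6.12 with DMSO, 1.93 with delphinidin, 3.00 with cyanidin and 3.24 with bilberry extracts, a ratio of -1.67. Nr1d1, the repressor REV-ERBα, had a ratio of -1.44, but its further probes gave -0.64 and -0.06. Nr1d2 and Per3 were at -0.82 and -0.80, and on the higher side Hlf and Ciart, both dim, were at 0.84 and 0.78. Of the 22 genes 10 lay above the median of all genes and 12 below. The E-box letters CACGTG were in 5 of 17 clock windows (29.4%) and in 9.72% of detected genes.

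The list of S100 proteins and small carriers had 3 of 18 measured genes past 2-fold higher and none lower. Each of the receptor, hormone and other lists that follow had at most 1 member past 2-fold. Over all genes 1.3% were higher, 1.98% lower and 3.28% in either direction. Ahr, the aryl hydrocarbon receptor, was at 0.695 with DMSO and 0.285 with delphinidin, the only one of 6 measured genes of its list past 2-fold. Glucocorticoid targets had none of 19 past 2-fold and a median 0.19 below that of all genes, from Pdk4 at -0.66 to Glul at 0.08. In the cAMP list 1 of 20 was past 2-fold higher, Adcyap1r1, the receptor of the peptide PACAP, at 0.0322 with DMSO and 0.151 with delphinidin. Etv4, an ETS factor downstream of ERK, had a ratio of 1.68 as the only one of 24 in its list. Apoptosis genes had none of 30 past 2-fold, from Casp12 at -0.69 to Cycs at 0.70. In glycolysis and the citrate cycle, Eno2 at -1.16 was the only one of 41, and it was at -0.89 under spike-in scaling.

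The genes with the largest ratios were mostly dim, and for many of them a single array stood apart. Chn1, a Rac GTPase-activating protein, was at 0.0165 with DMSO, 0.140 with delphinidin, 0.0167 with cyanidin and 0.0163 with bilberry extracts, a ratio of 3.08, while its other detected probe gave -0.34. Cep135, a centriole protein, had a ratio of 2.74 and another probe at -0.14, and Chadl had a ratio of 2.49 and another probe at -0.00. Wee1, the kinase that restrains Cdk1, was at 0.0388 with DMSO, 0.228 with delphinidin and 0.0495 with cyanidin. Apod, a lipid carrier of the lipocalin family, was at 0.0671, 0.397 and 0.208 in that order, with bilberry extracts at 0.198. For Wee1 only the delphinidin array was high, and for Apod all treated arrays were above DMSO. On the lower side, Cd300e, Cnr1, Krt84 and Exoc3l2 had ratios from -4.16 to -3.90 and were high on the DMSO array alone. Slc8a1 had a ratio of -4.02 while its other probes gave -0.68, 0.16 and 0.39.

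Genes detected on 1 of the 2 arrays have only a bound. Of the genes detected with delphinidin only, 312 had a bound over 1, and 71 of them were at least 2-fold higher. Of those detected with DMSO only, 226 had a bound over 1, and 127 of them were at least 2-fold lower. Ppp1r3a, a glycogen-targeting subunit of protein phosphatase 1, was at least 24.0-fold higher, with a scaled signal of 0.363 on the delphinidin array and not well above background with DMSO or cyanidin. It was followed by Olfr520, Iqgap2, Tbc1d21 and Amph at 20.6-fold, 19.6-fold, 19.5-fold and 19.4-fold or more. Fer1l4 was at least 44.1-fold lower, from a scaled signal of 0.476 with DMSO, followed by Otud1, Hpse, Lrp2 and Kl at 42.0-fold, 41.6-fold, 40.0-fold and 34.6-fold or more. The rule for a bound admits only genes without a probe detected on both arrays.

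Large ratios were unevenly placed on the array. The array has 532 rows, and among 10 bands of rows the 4 with a share above 2.92% were neighbours, rows 214 to 426. They held 41.7% of the detected probes, and 3.95% of these were past 2-fold, against 2.18% of the probes in other rows. The band with most was rows 267 to 320, at 4.81%. Of the 15 named genes with the highest and the 15 with the lowest ratios, 11 and 12 had their probe in rows 214 to 426. All 10 genes with the bounds above lay between rows 267 and 426. By signal, with the probes in 5 groups of equal size, 5.80% of the dimmest group were past 2-fold and 0.813% of the brightest. Whether the place or the dimness of a probe gave these ratios was not tested. With rows 214 to 426 left out, 16 DNA replication genes were past 2-fold and their median was 1.00 above that of all genes, and the mitosis list had 3 past 2-fold and a median 0.75 above.

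**Figure D5:**
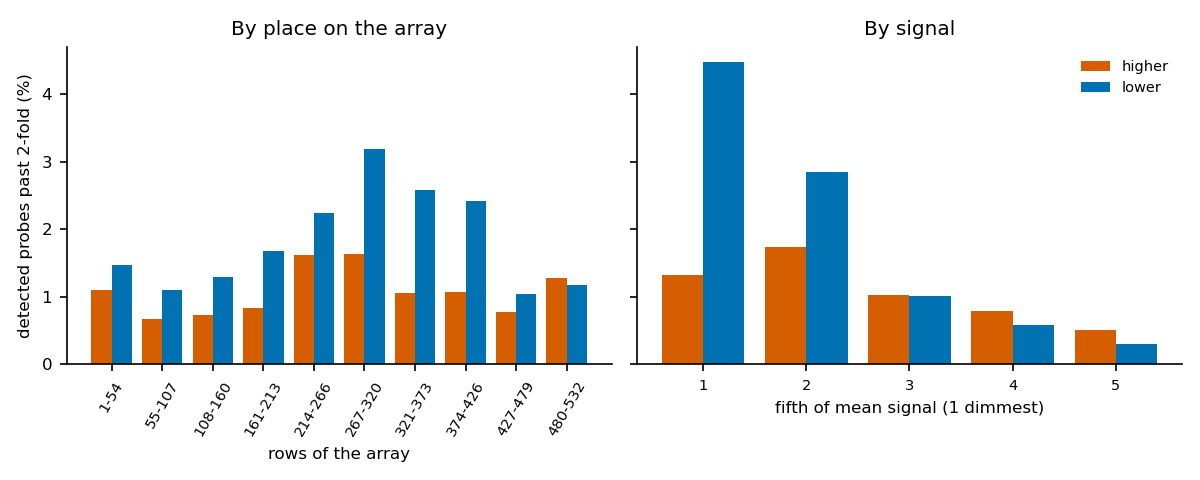
Percent of detected probes past 2-fold higher and lower with delphinidin, by bands of array rows (left) and by 5 equal groups of mean signal (right). Rows 267 to 320 and the dimmest group hold the largest shares, 4.81% and 5.80% in both directions together.

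Genes with several detected probes gave a check within the arrays. There were 5468 genes with 2 or more detected probes. Of these, 39 had their brightest probe past 2-fold higher and 45 lower, where 1.3% and 1.98% of all genes were. Of the 39, 20 had all probes past 2-fold and 32 had all probes in the same direction. Of the 45, 28 had all probes past 2-fold and 42 had the same direction. How often probes share a direction in the other genes was not tested. The genes with all probes past 2-fold included Adamts8, Krt8, Gsta3 and Adh1, an alcohol dehydrogenase of retinol metabolism, on the higher side. Krt8, a keratin, was dim, and its ratio of 1.80 was 0.60 after normexp correction. Adh1 was at 1.09 with DMSO, 3.13 with delphinidin and 3.14 with cyanidin, and Dhrs3, which acts on retinal, was at 1.27, 3.53 and 2.86. On the lower side they included Tnfsf11 (RANKL) at -3.26, Il13ra1, a receptor chain for IL-13, at -1.86, and Cyp2b13 at -1.87.

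Delphinidin and cyanidin were given at the same dose for the same time, which allows the pair to be set side by side without the DMSO array. They were the only single compounds on the arrays, and with 1 array each their comparison has no test and no interval for the spread between cultures. Past 2-fold, 157 probes (0.662%) were higher and 118 (0.498%) lower with delphinidin than with cyanidin, 1.16% of 23715 in all. Over genes 67 (0.521%) were higher and 75 (0.584%) lower, 1.1% of 12853 in all. The median of the DNA replication list was 0.34 above that of all genes for delphinidin over cyanidin, and that of mitosis 0.28 above. Against the shared DMSO array, the replication median was 0.92 with delphinidin, 0.55 with cyanidin and 0.73 with bilberry extracts. The mitosis median was 0.75, 0.43 and -0.16 in that order.

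Single genes past 2-fold over DMSO that also stood apart from cyanidin were largely dim. Delphinidin over cyanidin was 3.52 for Cep135, 3.10 for P4htm, 3.07 for Chn1, 2.79 for Cep128 and 2.61 for Olfr373. In each of them the cyanidin array read near or below the DMSO array, and all 5 probes lay in rows 214 to 426. Other detected probes gave 0.08 for Cep135, 0.37 for Chn1 and 0.36 for Cep128 over cyanidin, none of them past 2-fold. On the other side it was -3.11 for Ptpn5, -1.73 for Cilp, -1.60 for Aox3, -1.46 for Tesc and -1.39 for Mfsd13a. After normexp correction the ratios over DMSO of Olfr373, Ptpn5, Aox3 and S100a8 were under 2-fold, at 0.86, -0.46, -0.96 and 0.73. Mfsd13a was at 4.25 with DMSO, 0.924 with delphinidin and 2.42 with cyanidin. Tesc, a calcium-binding protein, was at 0.587, 0.0634 and 0.174. Pparg, Adh1 and S100a8 had delphinidin over cyanidin values of -0.00, -0.00 and -0.01. No software error was computed for this pair of arrays.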

How the data were processed

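Total RNA of each culture was labeled with a single dye and hybridized to an Agilent Whole Mouse Genome array. The authors deposited the Feature Extraction output (version 9.5.1.1 in the file header), and the value used here is its processed signal, an intensity after background subtraction. The deposited table of the whole series held the same intensity values. Here the 43379 non-control spots of an array were scaled by their 75th percentile and taken to log2. The study's methods took this percentile over all measurements and first raised very low values to a floor, which was not done here. Outlier-marked spots were left out, and 1036 probes then lacked a value on 1 or both arrays. Spots of a probe were averaged, and a gene took its brightest probe detected on both arrays.

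Names came from RefSeq accessions (24490 probes), symbols (6234) or synonyms (2391) of GRCm38.p6, and 8059 probes stayed unnamed. Probe coordinates are on mm8 as in the files, and no gene models of that build were used. Promoter sequences are from RefSeq.

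There was 1 array per condition, so no test was made, and the small number of arrays sets how precise any value can be. The members, gene lists and alternatives were chosen with earlier results of these data known. The named genes are the 15 highest and 15 lowest ratios, the 10 genes each way with all probes past 2-fold, the 5 largest bounds each way, list members past 2-fold or else the extremes, genes the study measured, and the 5 extremes each way over cyanidin, with predicted genes left out. The bright genes and the gene families, Klra and Clca3a among them, were added after their values were seen. Ratios and counts were recomputed with quantile, loess, spike-in and other scalings, normexp with an offset of 50, other detection filters and thresholds of 1.5 and 3. The calculations were tested on simulated data. A few genes are not reported here. Normexp was run in limma 3.58.1 (R 4.3.3) and loess in statsmodels 0.14.6, and the remaining steps in Python 3.11.15 with pandas 2.3.3 and numpy 2.4.6.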

Additional observations from a re-analysis of the deposited data

How the results depend on the processing

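The counts past 2-fold moved with the processing over 16 alternatives, and so did the balance of higher and lower. The median of 10 of 34 gene lists changed sign under at least 1 alternative, all with a median between -0.09 and 0.17, and 24 kept theirs. Spike-in scaling gave 588 probes higher and 217 lower (377 and 134 genes), with 32 DNA replication and 32 mitosis genes past 2-fold. Normexp background correction gave 126 and 152 probes (92 and 105 genes). Detection on at least 1 array gave 685 and 811 probes (385 and 455 genes), no detection filter 1054 and 1709 (577 and 862 genes), and a signal over the median of detected probes 96 and 81 (78 and 66 genes). A threshold of 1.5-fold gave 925 and 1641 probes (565 and 796 genes), with 36 DNA replication and 46 mitosis genes. A threshold of 3-fold gave 64 and 106 probes (39 and 65 genes), with 0 in both lists. Leaving out rows 214 to 426, chosen after seeing the data, gave 121 and 176 probes (95 and 129 genes). The cause of these shifts was not tested beyond what each setting removes. The DNA replication median stayed between 0.86 and 1.01 and the mitosis median between 0.70 and 0.84. Without a detection filter the medians relative to all genes were -0.18 for interferon-stimulated genes, -0.09 for glucocorticoid targets, -0.03 for inhibitors of adipogenesis and -0.01 for the clock. Of 105 named genes past 2-fold, 101 were so under quantile and loess normalization, 95 under spike-in scaling and 82 under normexp. No paired analysis was possible because each group had 1 array. Dim signal limits many of the genes with the largest ratios.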
